A study of Mus musculus with 6 samples.

Results

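Purkinje cells are the large inhibitory neurons whose axons form the only output of the cerebellar cortex. A set of 31 genes listed under Purkinje cell identity was followed here in cerebellar RNA of wild-type mice and of mice lacking Gb5. Several of these genes are also expressed by other cells, as told below. The genes were given as a list of symbols, and each was read from the probe with the highest mean over the 6 arrays among probes annotated to that symbol only. Of the 31 genes, 30 had such a probe, out of 18193 genes with one on the array, and all 30 lay above the filter on dim probes. Skor2 was not analysed here. The 30 genes divide into 8 transcription factors and 22 genes of mature Purkinje cells.

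The study compared 3 wild-type mice with 3 Gb5-deficient mice, 1 array each, described by the labels as biological replicates and as age- and sex-matched littermates. The labels give the tissue as brain and the series title gives it as cerebellum. Neither the age, nor the strain, nor the way the gene was disrupted is stated in the sources used here, and no allele or agent is named that both groups carry. Wild-type arrays are numbered 1, 2 and 3 and Gb5-deficient arrays 4, 5 and 6, as in the sample titles.

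Gb5 is a G protein beta subunit of neurons that pairs with the R7 family of RGS proteins, which shorten signalling through Gi/o-coupled receptors. Purkinje cells integrate granule cell and climbing fibre input through large calcium signals, and their calcium-binding proteins, inositol phosphate enzymes and glutamate transporter are among the best known markers of the cell. Their identity is set during development by transcription factors, several of which stay on in the adult cell. Bands of Purkinje cells alternate across the cerebellum, distinguished by zebrin II, the product of Aldoc.

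The promoters of 3 of the mature genes are shown because they hold the core letters of sites known for families of factors measured on the same arrays. Binding to these promoters was not tested. The nuclear receptor ROR-alpha, the product of Rora, binds AGGTCA cores, and the EBF proteins bind CCCNNGGG cores. Each sequence is the 250 bases before the most upstream listed start, from RefSeq (GRCm38.p6), written 5′ to 3′ on the gene's strand with the matched core in capitals. In Pcp2 (chr8:3625548-3625797, minus strand) the core begins 12 bases before the start, and in Pcp4 (chr16:96467356-96467605, plus strand) it begins 164 bases before it and lies on the opposite strand. In Slc1a6 (chr10:78780246-78780495, plus strand) the EBF core begins 78 bases before the start.
Pcp2: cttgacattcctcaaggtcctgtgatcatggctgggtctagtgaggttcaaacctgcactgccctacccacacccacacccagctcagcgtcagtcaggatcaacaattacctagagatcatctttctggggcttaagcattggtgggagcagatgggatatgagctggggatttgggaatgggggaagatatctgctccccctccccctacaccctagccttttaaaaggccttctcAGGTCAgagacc
Pcp4: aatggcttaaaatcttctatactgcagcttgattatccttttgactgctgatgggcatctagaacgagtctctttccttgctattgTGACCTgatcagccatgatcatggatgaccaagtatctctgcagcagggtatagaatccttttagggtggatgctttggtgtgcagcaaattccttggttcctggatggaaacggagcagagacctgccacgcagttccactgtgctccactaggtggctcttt
Slc1a6: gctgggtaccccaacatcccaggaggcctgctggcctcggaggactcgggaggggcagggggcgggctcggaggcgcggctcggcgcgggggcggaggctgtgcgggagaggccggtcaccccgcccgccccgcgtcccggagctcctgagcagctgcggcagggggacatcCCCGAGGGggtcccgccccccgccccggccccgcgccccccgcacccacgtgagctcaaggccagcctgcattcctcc

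The promoter search covered 21 of the members, with 30 windows of which some belong to the same gene and overlap. It skipped any member on a certain chromosome, which the shares over all windows kept. Both strands were searched. AGGTCA stood in 7 of the 30 windows, those of Pcp2, Pcp4, Dner, Arhgef33 and Gpr63, a share of 23.3%, against 14% of all 32851 windows. CCCNNGGG stood in 3 windows, those of Slc1a6, Pvalb and Itpka, a share of 10%, against 11.8% of all windows. These are matches of letters only.

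Before the member values, the arrays themselves were checked. Gnb5, which encodes Gb5, read 8.80, 8.51 and 8.70 (log2 signal) in wild type against 3.65, 3.36 and 2.96 in Gb5-deficient arrays, a difference of -5.35 (SE 0.18; adjusted p from limma 4.33e-06). Markers of cerebellar granule cells were bright on every array, with Cbln1 between 13.17 and 13.29 and Neurod1 between 12.27 and 12.66. The forebrain marker Neurod6 read 6.93 to 7.52 over the 6 arrays, and Tbr1 read 6.27 to 6.68 in wild type and 5.89 to 6.18 in Gb5-deficient arrays, without overlap (log2 fold change -0.48; adjusted p = 0.525). Ttr of choroid plexus ranged from 11.69 on array 4 to 13.79 on array 1. Array 6 stood apart: an Xist probe read 6.64 against 11.11 to 11.35 on the others, the Y-linked Eif2s3y read 11.80 against 3.19 to 3.43, and the 3′ minus 5′ difference of the Gapdh control probes was 1.58 against 1.03 to 1.14. Male tissue reads low for Xist and high for Eif2s3y, while the labels describe sex-matched animals. Counts that lead the results are therefore also given without array 6. Of 14067 genes tested with limma, 5 passed at an adjusted p under 0.05 (0.0355%), 1 higher and 4 lower in Gb5-deficient cerebellum; without arrays 1 to 6 in turn, 10, 3, 3, 8, 4 and 2 genes passed.

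No Purkinje gene passed the test, in either direction. Log2 fold changes, Gb5-deficient minus wild type, lay between -0.19 for Stk17b and 0.52 for Ebf2, with a median of 0.05 over the 30 genes against 0.03 over all genes tested. Values were above 0 in 18 and below 0 in 12, against 56.7% above 0 over all genes. The median over the 30 genes depended on single arrays: it was -0.01 without array 4, 0.00089 without array 2, 0.02 without array 3, 0.01 without array 6 and 0.07 without array 1. The smallest limma adjusted p was 0.390, that of Ebf2. An unadjusted p under 0.05 was found for 1 of the 30, Ebf2, against 8.57% of all genes. In 4 of the 30 genes, Ebf2, Bcl11a, Slc1a6 and Arhgef33, every Gb5-deficient array read above every wild-type array, against 10.1% of all genes, and in none did every Gb5-deficient array read below, against 4.82%. Without array 6, 19 values were above 0 (63.3%), against 58.5% of all genes. Pcp2 then joined the 4 genes in which every Gb5-deficient array read above every wild-type array, against 12.8% of all genes. RNA of cerebellar tissue was measured, so a difference in the number of Purkinje cells and one in RNA per cell cannot be told apart.

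**Figure D1:**
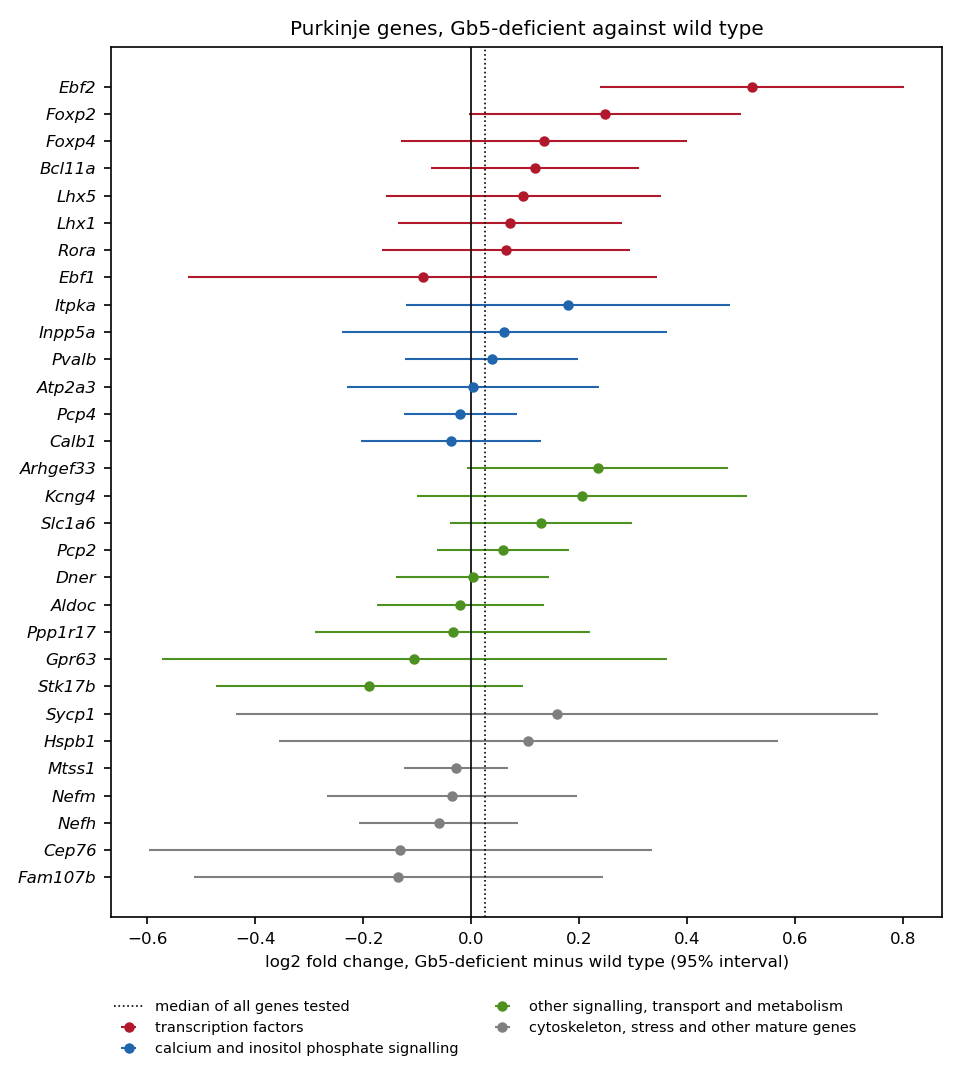
Log2 fold change of each of the 30 measured Purkinje genes (horizontal axis, Gb5-deficient minus wild type, points) with its 95% interval from limma (lines), grouped by role and colour; the dotted line is the median of all 14067 genes tested, 0.03. Only the interval of Ebf2, from 0.24 to 0.80, excludes 0, and its adjusted p was 0.390.

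The precision differed widely between genes. The 95% interval lay within 0.5 (log2) of 0 for 21 of the 30 genes, against 73.6% of all genes, and within 0.25 for 9, against 14.4%. Those 9 were all mature genes and none was a transcription factor. Apart from Atp2a3, at 8.15, they were read from bright probes, with wild-type means from 11.91 (Nefh) to 13.72 (Pcp4). Of the factors only Rora, at 12.06, was as bright. The part of probe brightness in the width of the intervals was not tested. The narrowest was that of Mtss1, from -0.12 to 0.07, and the widest that of Sycp1, from -0.43 to 0.75. Each interval holds for the brightest probe of the gene only. For 26 of the 30 genes the range over the 3 wild-type arrays alone was larger than the size of the fold change, against 78% of all genes.

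Among the transcription factors, 7 of 8 had values above 0, against 56.7% of all genes, and none passed. Their median log2 fold change was 0.11, against -0.01 for the 22 mature genes, of which 11 lay above 0 and 11 below. Without array 6, 7 of the 8 factors and 12 of the 22 mature genes lay above 0, against 58.5% of all genes. The difference between the medians was 0.12; without array 1 it was 0.06, with the mean of each gene's probes 0.05 and with array weights 0.07, and without array 6 it was 0.12. The same difference taken on each array, from every gene's deviation from its own mean, was -0.21, -0.04 and 0.04 on wild-type arrays 1, 2 and 3 and -0.09, 0.21 and 0.12 on Gb5-deficient arrays 4, 5 and 6. The genotypes overlapped, since array 4 read below wild-type arrays 2 and 3, and the SD between arrays of one genotype was 0.14. No test was made of this difference, because the genes had been chosen with results of these arrays known.

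Ebf2, an EBF family factor that is known in the cerebellum from Purkinje cells of zebrin-negative bands, had the largest value of the list. Its log2 signal was 7.18, 7.14 and 7.22 in wild type and 7.48, 7.86 and 7.77 in Gb5-deficient cerebellum. The wild-type arrays lay within 0.09 of each other and all 3 Gb5-deficient arrays lay above them, with array 4 the nearest. The log2 fold change was 0.52 (SE 0.12; 95% interval 0.24 to 0.80; unadjusted p = 0.00251; limma adjusted p = 0.390). A second Ebf2 probe, below the filter, read 4.07, 4.11 and 3.89 in wild type against 4.27, 4.58 and 4.15 in Gb5-deficient cerebellum, also without overlap, and the third, dimmer still, differed by -0.0070. Without array 6 the fold change of the first probe was 0.49 (adjusted p = 0.918), and the mean of the 3 probes gave 0.27.

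Ebf1, the close relative of Ebf2, did not share this order. It read 11.49, 11.10 and 10.94 in wild type against 11.35, 10.68 and 11.23 in Gb5-deficient cerebellum, and the genotypes overlapped. Its fold change was -0.09 (95% interval -0.52 to 0.35). The 5 Ebf1 probes above the filter gave values from -0.09 to 0.28, and 3 of them were above 0.

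Foxp2, a forkhead repressor best known from speech and motor circuits, read 9.97, 10.01 and 10.25 in wild type against 10.20, 10.46 and 10.32 in Gb5-deficient cerebellum. Wild-type array 3 lay above the lowest Gb5-deficient array. The log2 fold change was 0.25 (95% interval -0.0033 to 0.50; limma adjusted p = 0.584), the other 5 Foxp2 probes gave values from -0.06 to 0.09, and the mean of all 6 gave 0.075. Its paralogue Foxp4 read 8.96, 9.19 and 9.08 in wild type against 9.07, 9.38 and 9.19 in Gb5-deficient cerebellum, a fold change of 0.14 with overlapping groups, which was 0.050 without array 5, 0.078 without array 1 and 0.21 without array 4.

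A second Foxp4 probe differed more than the first. It read 7.73, 8.12 and 8.06 in wild type against 8.16, 8.38 and 8.57 in Gb5-deficient cerebellum, without overlap, a log2 fold change of 0.40 (adjusted p = 0.576 with every probe tested). The third Foxp4 probe above the filter gave 0.022, with overlapping groups. Lhx1, a LIM homeodomain factor of developing and adult Purkinje cells, showed the same kind of split between probes. Its brighter probe read 10.60, 10.51 and 10.66 in wild type against 10.62, 10.57 and 10.79 in Gb5-deficient cerebellum, a fold change of 0.07. Its other probe read 7.25, 7.54 and 7.49 against 7.50, 8.14 and 7.99, a fold change of 0.45 (adjusted p = 0.581 with every probe tested), where array 4 fell between the wild-type arrays.

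Lhx5, the partner of Lhx1 in Purkinje cell differentiation, read 5.96, 6.14 and 6.18 in wild type against 6.20, 6.13 and 6.24 in Gb5-deficient cerebellum. Its fold change was 0.10 (95% interval -0.16 to 0.35), and array 5 lay below 2 of the wild-type arrays. Bcl11a, a zinc-finger repressor of neurons also expressed in forebrain, read 10.33, 10.39 and 10.39 in wild type against 10.43, 10.59 and 10.44 in Gb5-deficient cerebellum. Here the groups did not overlap, although arrays 3 and 4 were only 0.039 apart and the fold change was 0.12 (adjusted p = 0.652), and 3 of its 4 probes above the filter lay above 0.

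Rora, whose loss in staggerer mice leaves Purkinje cells immature, had 8 probes above the filter, 4 above 0 and 4 below, from -0.22 to 0.20. The probe that represents it read 12.23, 11.84 and 12.12 in wild type against 12.11, 12.23 and 12.04 in Gb5-deficient cerebellum, a fold change of 0.06 (95% interval -0.17 to 0.29). The genotypes overlapped fully.

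Over all probes of the 8 factors above the filter, 22 of 30 had values above 0 (73.3%), against 21 of 40 (52.5%) for the mature genes and 54.1% of all probes on the array. An unadjusted p under 0.05 was found for 4 of the 30, in Ebf2, Foxp2, Foxp4 and Lhx1, and for 2 of the 40, in Calb1 and Mtss1, against 8.32% of all probes. For the Foxp2 probe the unadjusted limma p was 0.0486 in the fit over probes and 0.0524 in that over genes. Probes of one gene share its RNA and are not independent. None of the 70 probes passed after adjustment over all probes, where the smallest adjusted p was 0.425 and 8 of 25950 probes passed (0.0308%).

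**Figure D2:**
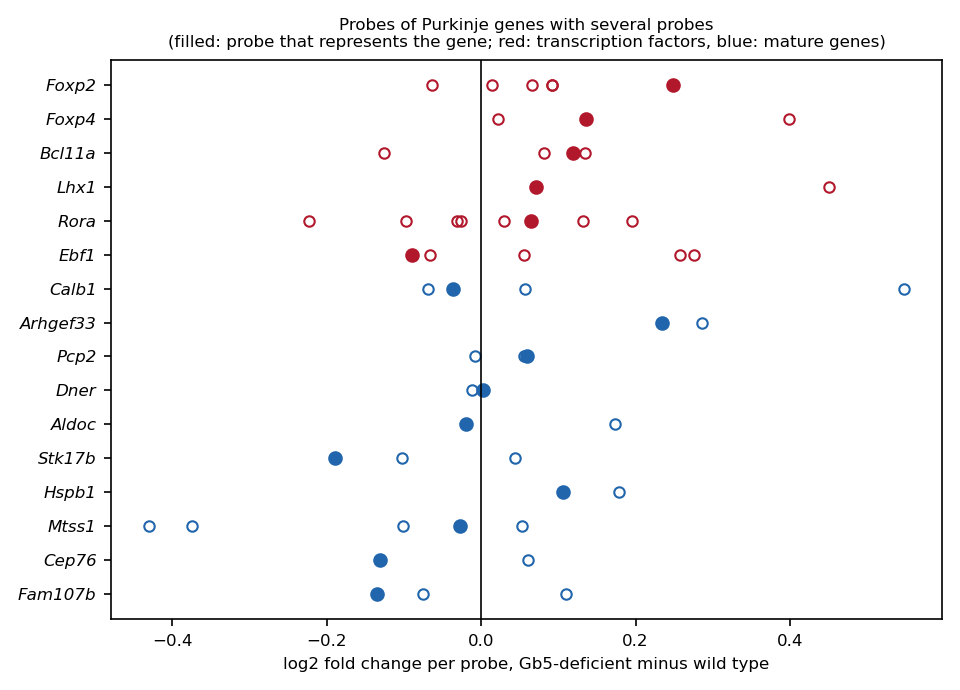
Log2 fold change of every probe above the filter (horizontal axis) for the 16 Purkinje genes with several such probes (vertical axis); filled points are the probes that represent the genes, red are transcription factors and blue mature genes. Probes of one gene lay on both sides of 0 in 12 of the 16 genes, and the widest spread was that of Calb1, from -0.07 to 0.55.

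Genes of calcium handling and inositol phosphate signalling together had a median of 0.02 (log2 fold change), with 4 of 6 above 0 and none passing. Calb1, the buffer calbindin that fills Purkinje cells, read 13.04, 13.01 and 12.90 in wild type against 13.09, 12.82 and 12.92 in Gb5-deficient cerebellum. Its fold change was -0.04 (95% interval -0.20 to 0.13), and the 3 Gb5-deficient arrays spanned the wild-type range on both sides. The dimmest Calb1 probe gave another picture, with 6.10, 6.69 and 6.54 against 6.97, 6.68 and 7.33 and a fold change of 0.55 (adjusted p = 0.569 with every probe tested); there array 5 fell just below wild-type array 2.

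Pcp4, a small calmodulin-binding protein, read 13.74, 13.74 and 13.68 in wild type against 13.78, 13.63 and 13.67 in Gb5-deficient cerebellum, a fold change of -0.02 (95% interval -0.12 to 0.09). Pvalb, the buffer parvalbumin of Purkinje cells and molecular layer interneurons, read 12.70, 12.48 and 12.60 against 12.70, 12.66 and 12.54, a fold change of 0.04 (95% interval -0.12 to 0.20). In both genes the groups overlapped. Atp2a3, the SERCA3 calcium pump, had a fold change of 0.0039 and its 95% interval reached from -0.23 to 0.24.

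Inpp5a, the phosphatase that ends inositol trisphosphate signals, read 11.13, 11.06 and 10.88 in wild type against 11.28, 10.79 and 11.19 in Gb5-deficient cerebellum. Arrays 4 and 5 were thus the highest and the lowest of all 6, and the fold change was 0.06 (95% interval -0.24 to 0.36). Itpka, the kinase that phosphorylates the same messenger and is also abundant in forebrain, read 7.47, 7.60 and 7.54 against 7.75, 7.48 and 7.93. Its fold change was 0.18 (adjusted p = 0.661), with array 5 among the wild-type arrays; it was 0.30 without array 5 and 0.076 without array 6.

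Pcp2, whose promoter is printed above, encodes a GoLoco protein of Purkinje cells and retinal bipolar cells that binds Gi/o alpha subunits. It read 12.66, 12.58 and 12.63 in wild type against 12.75, 12.69 and 12.61 in Gb5-deficient cerebellum. The whole span over 6 arrays was 0.17 and the groups overlapped. The log2 fold change was 0.06 (95% interval -0.06 to 0.18; adjusted p = 0.710), and the other Pcp2 probes gave 0.06 and -0.0083. Ppp1r17, the G-substrate of cGMP-dependent kinase and an inhibitor of protein phosphatases, read 12.23, 11.90 and 11.92 against 12.17, 11.88 and 11.89, with 1 high array in each genotype.

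Slc1a6, the Purkinje cell glutamate transporter EAAT4, whose promoter is also printed above, read 11.10, 11.24 and 11.19 in wild type against 11.30, 11.25 and 11.37 in Gb5-deficient cerebellum. The groups did not overlap, but arrays 2 and 5 were only 0.0094 apart, and the fold change was 0.13 (95% interval -0.04 to 0.30; adjusted p = 0.612). Arhgef33 read 8.99, 8.94 and 8.81 against 9.23, 9.02 and 9.21, also without overlap, with arrays 1 and 5 only 0.022 apart. Its fold change was 0.23 (95% interval -0.01 to 0.48, adjusted p = 0.591). The second Arhgef33 probe gave 0.29, with overlapping groups.

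Stk17b, a serine/threonine kinase, had the lowest value of the list. It read 10.42, 10.22 and 10.22 in wild type against 10.26, 9.85 and 10.19 in Gb5-deficient cerebellum, a fold change of -0.19 (95% interval -0.47 to 0.10; adjusted p = 0.635). Array 5 was the low one, and without it the value was -0.06. Its other probes above the filter gave -0.10 and 0.04.

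Kcng4, a modifying subunit of Kv2 potassium channels, had a value of 0.21 and read 8.34, 8.10 and 7.97 in wild type against 8.51, 8.20 and 8.32 in Gb5-deficient cerebellum; without single arrays the value ran from 0.12 (arrays 3 and 4) to 0.31 (array 1). Dner, the Notch ligand through which Purkinje cells signal to Bergmann glia, had one of 0.0030 (95% interval -0.14 to 0.14). Aldoc, the zebrin II aldolase that astrocytes also express, had one of -0.02 (95% interval -0.17 to 0.14). The orphan receptor Gpr63 had one of -0.10, with wild-type arrays from 5.58 to 6.30. In each of these 4 genes the groups overlapped.

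Of the cytoskeletal and remaining genes, 2 of 7 lay above 0. Mtss1 is a membrane-bending actin regulator of Purkinje dendrites. On the probe that represents it, it was the steadiest of the list, with all 6 arrays between 13.01 and 13.08. The fold change of Mtss1 on that probe was -0.03. Of its 4 dimmer probes above the filter, 2 gave -0.10 and 0.05 with overlapping groups and the other two were lower without overlap. The lowest read 7.23, 7.10 and 7.42 in wild type against 7.01, 6.71 and 6.73 in Gb5-deficient cerebellum, a fold change of -0.43 (adjusted p = 0.547 with every probe tested), and the other gave -0.37. The neurofilament genes Nefh and Nefm, which brainstem and cerebellar nuclear neurons also express, had values of -0.06 (95% interval -0.21 to 0.09) and -0.04 (95% interval -0.27 to 0.20).

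The small heat shock protein gene Hspb1, known from subsets of Purkinje cells, read 8.08, 8.42 and 8.24 in wild type against 7.90, 8.42 and 8.74 in Gb5-deficient cerebellum. Gb5-deficient arrays 4 and 6 were the lowest and the highest of all 6, and the fold change was 0.11 (95% interval -0.36 to 0.57); without array 6 it was -0.09. Sycp1, a meiotic synaptonemal complex gene, spanned 1.11 over the 6 arrays, all of it within wild type, at 7.84, 6.72 and 7.04. Cep76, a centriolar gene, had a value of -0.13 and Fam107b one of -0.13, both with wild-type ranges above 0.60. Without single arrays Fam107b ran from -0.33 (array 2) to -0.0010 (array 1).

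**Figure D3:**
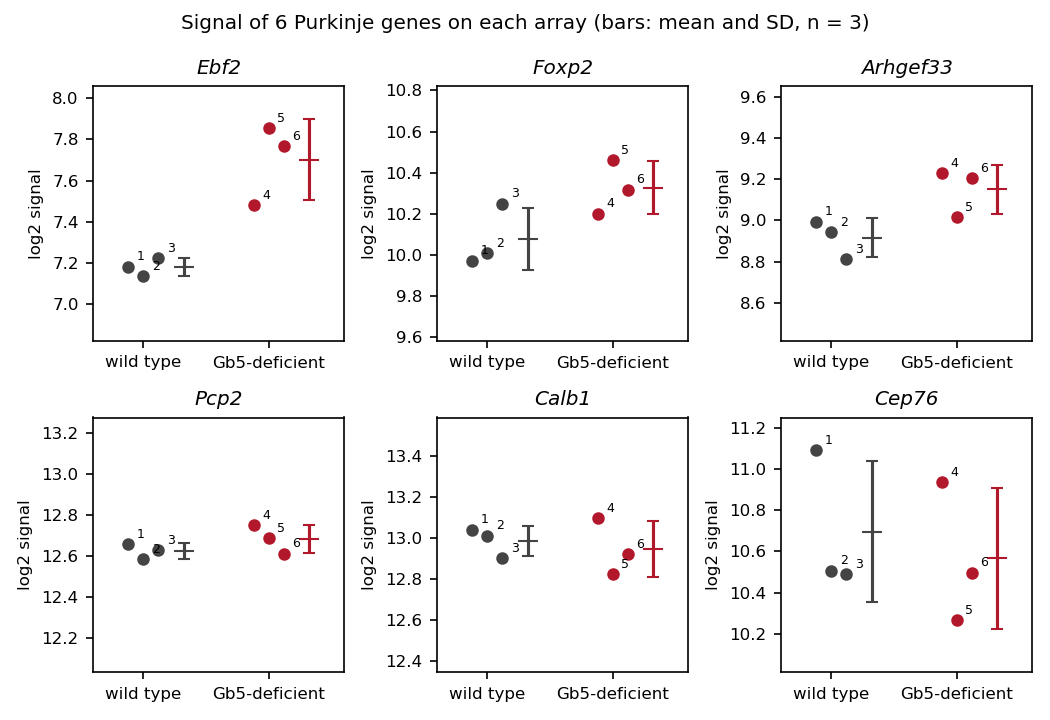
Log2 signal of 6 Purkinje genes on each array (points, numbered by array) with the mean and SD of each genotype (bars, n = 3); every panel covers the same height in log2 units. Ebf2 and Arhgef33 have no overlap between genotypes, Foxp2, Pcp2 and Calb1 overlap, and Cep76 has array 1 high in wild type and array 4 high in Gb5-deficient cerebellum.

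Many of the mature genes shared their variation between mice of one genotype. Cep76 is an example, at 11.09, 10.51 and 10.49 in wild type and 10.94, 10.26 and 10.50 in Gb5-deficient cerebellum. Array 1 was the highest wild-type array for 15 of the 22 mature genes (68.2%), against 27.9% of all genes tested. Array 4 was the highest Gb5-deficient array for 19 of the 22 (86.4%), against 30.2% of all genes. Both held for 15 (68.2%), against 15.4% of all genes; without array 6, array 1 was the highest wild-type array and array 4 above array 5 for the same number, against 18.1% of all genes. With array 5 also the lowest Gb5-deficient array, 10 mature genes had the full order (45.5%, against 9.04% of all genes): Calb1, Ppp1r17, Dner, Stk17b, Kcng4, Inpp5a, Atp2a3, Cep76, Arhgef33 and Sycp1. This order was noticed in the data and was not tested.

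The transcription factors did not share this order. Array 1 was the highest wild-type array for 2 of the 8 (25%), near the 27.9% of all genes. Array 4 was the highest Gb5-deficient array for 1 (12.5%), against 30.2% of all genes. Of the 8, 1 had its highest value on array 1 or 4 and 7 on array 5 or 6, while 16 of the 22 mature genes had it on array 1 or 4 and 3 on array 5 or 6. Over all genes tested, 27.4% had their highest value on array 1 or 4 and 51% on array 5 or 6. Array 1 was the lowest of all 6 for 4 of the 8 factors, Foxp2, Foxp4, Lhx5 and Bcl11a, and for 31.9% of all genes. The factor that followed the mature genes was Ebf1, with the full order of arrays 1, 4 and 5.

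Granule cell markers read highest on array 4 and lowest on array 5. Their mean log2 signal over 12 measured genes was 11.65, 11.50 and 11.49 in wild type and 11.73, 11.41 and 11.69 in Gb5-deficient cerebellum, and 8 of the 12 had the full order of arrays 1, 4 and 5. The 22 mature Purkinje genes averaged 10.73, 10.57 and 10.59 in wild type and 10.74, 10.56 and 10.64 in Gb5-deficient cerebellum. All 14067 genes tested averaged 8.8031, 8.8392 and 8.8429 in wild type and 8.8426, 8.8729 and 8.8582 in Gb5-deficient cerebellum. Over all genes, too, the Gb5-deficient arrays thus read higher, except that array 4 lay just below array 3. The 8 factors averaged 9.59, 9.54 and 9.61 in wild type and 9.68, 9.74 and 9.75 in Gb5-deficient cerebellum, without overlap. Gene by gene the groups did not overlap in 2 of the 8, Ebf2 and Bcl11a, against 10.1% of all genes for that direction. How often the means of other lists separate in this way was not determined. Interneuron markers (10 measured), which include Golgi cell genes, likewise had their 3 highest means on the Gb5-deficient arrays. These were 8.75, 8.76 and 8.83 in wild type against 8.91, 9.02 and 8.97, without overlap. Of the 10, 8 had values above 0, against 56.7% of all genes, and their median log2 fold change was 0.21. The part of these markers in the values of the Purkinje genes was not tested.

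**Figure D4:**
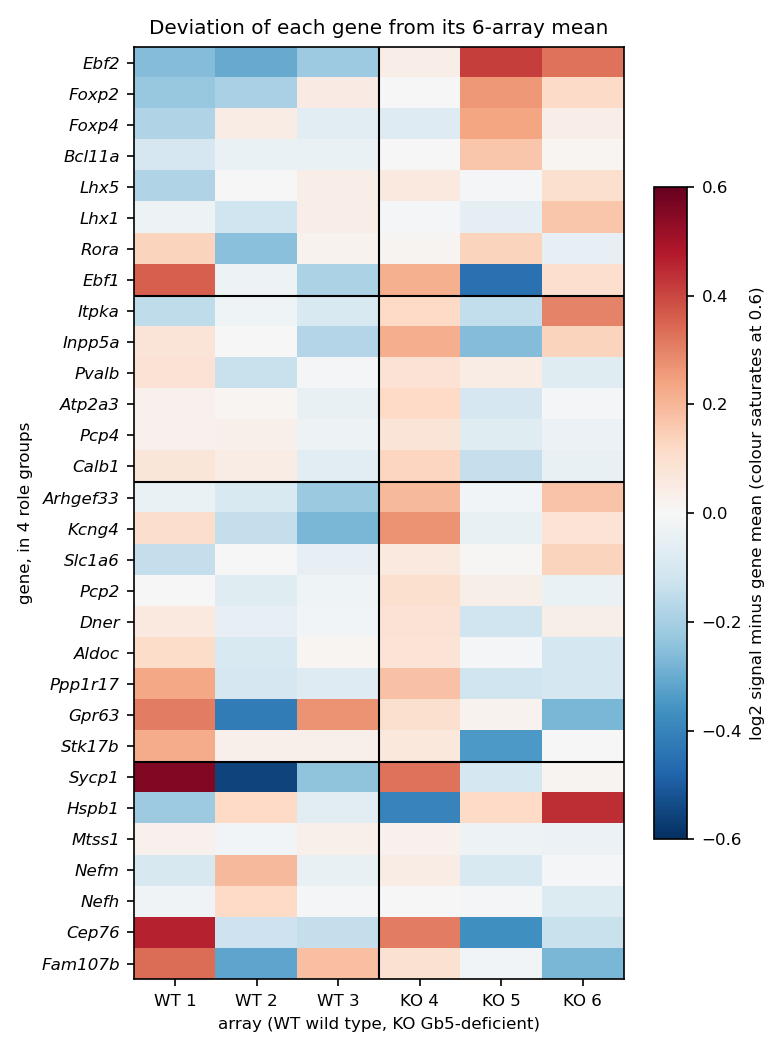
Colour map of the log2 signal of each measured Purkinje gene (rows, grouped by role) minus its own mean over the 6 arrays (columns); red is above and blue below the mean. Arrays WT 1 and KO 4 are mostly red and KO 5 mostly blue in the mature genes of the lower 3 groups, while in the factors of the top group red lies mainly on KO 5 and KO 6.

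Markers of other cells that could be in the tissue gave these values. Bergmann glia and astrocyte genes (11 measured, 5 above 0) had a median fold change of -0.02 (log2) and mean signals of 10.94 to 11.01 in wild type and 10.91 to 11.01 in Gb5-deficient cerebellum. Forebrain genes (9 measured, 6 above 0) had a median of 0.06, from -0.48 for Tbr1 to 0.27 for Crym. Genes of cerebellar nuclei, brainstem and midbrain (7 measured, 5 above 0) had a median of 0.02 and a wide spread, from -1.33 for Slc6a3, the dopamine transporter of midbrain neurons, whose groups did not overlap (adjusted p = 0.203), to 0.60 for Pou4f1. Their mean signal was 9.32 to 9.72 in wild type and 9.40 to 9.47 in Gb5-deficient cerebellum. Oligodendrocyte genes (9 measured, 2 above 0) had a median of -0.16; the groups did not overlap in 5, all lower in Gb5-deficient cerebellum (4.82% of all genes), and 4 had an unadjusted p under 0.05 (8.57% of all genes), with mean signals of 11.53 to 11.60 in wild type and 11.35 to 11.51 in Gb5-deficient cerebellum. Choroid plexus genes (8 measured, 3 above 0) had a median of -0.14 and, of these lists, the widest range of mean signals, from 7.32 to 8.91 in wild type and from 6.74 to 8.37 in Gb5-deficient cerebellum. None of the genes on these lists passed.

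A second list of Purkinje genes outside the 31, covering channels, synaptic and inhibitory transmitter genes, had 13 measured of 21 and none passing. Values were above 0 in 9 and below 0 in 4, with a median log2 fold change of 0.08. The largest was that of the T-type calcium channel gene Cacna1g, 0.32 (95% interval 0.03 to 0.61; adjusted p = 0.574), and the lowest that of the Kit ligand gene Kitl, -0.17 (95% interval -0.57 to 0.24). In 8 of the 13, array 1 was the highest wild-type array and array 4 the highest Gb5-deficient array, as in the mature members.

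Genes of the zebrin bands gave no common direction. Of those known from zebrin-positive cells, Aldoc had a log2 fold change of -0.02, Slc1a6 one of 0.13, the phospholipase gene Plcb3 one of -0.05 and the glycosyltransferase gene B3galt5 one of 0.02. Of those known from zebrin-negative cells, Ebf2 had one of 0.52, the phospholipase gene Plcb4 one of 0.06 (95% interval -0.05 to 0.18) and Nefh one of -0.06. None of these 7 genes passed, and 3 other listed band genes were not analysed here.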

How the data were processed

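RNA from 6 mice was measured on 6 Affymetrix arrays, 3 per genotype; groups come from the sample titles. The authors' deposited table holds log2 signal per probe, made with RMA and Partek per the submitters' processing notes, with no version given. RMA equalises the distribution of signal between arrays, so a change in total RNA would not be seen, and array numbers limit the precision. No scanner files or detection calls were used. Array medians ran from 6.48 to 6.57.

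Symbols were updated through Entrez identifiers (RefSeq, GRCm38.p6) for 34741 of 34945 probes with 1 gene; 932 probes with several genes were left out and the rest have no listed gene. Each gene was read from its probe of highest mean, and genes above the 30th percentile of probe means (4.70) were kept, 14067 in all. limma 3.58.1 (R 4.3.3, lmFit and eBayes with trend, two-sided, Benjamini-Hochberg over all genes, threshold 0.05) compared genotypes. All SEs, intervals and p-values come from it. For single probes, adjusted p-values come from the same fit over 25950 probes. Their unadjusted p-values come from the fit over all 34945 probes with 1 gene, before the filter. An exact permutation of 3 against 3 arrays cannot give p below 0.1 and was not used. On simulated data of 14067 genes the fit recovered 51.8% of changes of 0.5, 97.2% of changes of 1 and 100% of changes of 2 (log2), and 7.15% of calls were false. Each simulated run held 200 changed genes of these sizes, with noise drawn separately for every gene and array. The real arrays shared variation between genes and few genes passed. These shares therefore do not give the chance that a change of 0.5 would be called on them. Signals of different probes are not comparable as amounts and were not compared as such.

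The members and all gene lists were chosen with earlier results of these data known, so lists were described by counts and medians and not tested. Named were all members, Gnb5, tissue markers, band genes and the extremes of the second Purkinje list. The analysis was repeated without the filter, with a stricter one (50th percentile), after renewed quantile normalization or median centring of arrays, with probes averaged per gene or each tested separately, with the variance trend off or robust, with array weights and without each array; counts without array 6 were added after the data were seen.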

Additional observations from a re-analysis of the deposited data

How the results depend on the processing

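No Purkinje gene passed under any of the 15 alternatives; the smallest limma adjusted p was 0.152, for Ebf2 without array 4, and 28 of the 30 genes were above the stricter filter. The number of all genes passing was 5, and 8 with no filter, 3 with the filter at the 50th percentile and from 2 to 10 with single arrays left out; the cause was not tested, beyond the numbers of genes tested (18193 and 11489) and of arrays. The excess of the factors' median over that of the mature genes stayed above 0, from 0.05 to 0.17 over all alternatives. Of 448 single values, 405 kept their direction and 43, in 16 genes, did not; 14 genes never changed sign, but many of these moved in size, and with the mean of a gene's probes Ebf2 gave 0.27 and Foxp2 0.075.

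Reversed values were, with the mean of each gene's probes, 0.12 for Calb1, 0.077 for Aldoc, -0.0047 for Dner, 0.087 for Ebf1, -0.083 for Atp2a3, 0.052 for Gpr63 and -0.0087 for Bcl11a. With array weights they were 0.0012 for Pcp4, 0.012 for Calb1, 0.016 for Ppp1r17, 0.093 for Ebf1 and 0.00054 for Cep76. With array medians subtracted they were -0.023 for Dner and -0.022 for Atp2a3, and with a second quantile normalization -0.018 for Atp2a3. With single arrays left out, values ranged from -0.071 to 0.032 for Aldoc, -0.13 to 0.073 for Ppp1r17, -0.22 to 0.11 for Ebf1, -0.34 to 0.022 for Gpr63, -0.32 to 0.067 for Cep76, -0.046 to 0.15 for Rora and -0.040 to 0.062 for Dner. They ranged from -0.019 to 0.091 for Pvalb, -0.092 to 0.052 for Nefm, -0.079 to 0.48 for Sycp1, -0.032 to 0.21 for Inpp5a, -0.055 to 0.055 for Atp2a3, -0.063 to 0.012 for Pcp4, -0.11 to 0.025 for Calb1 and -0.088 to 0.33 for Hspb1. Among genes that kept their sign without single arrays, values ranged from 0.026 to 0.096 for Pcp2, -0.27 to -0.063 for Stk17b, 0.0063 to 0.12 for Lhx1, 0.032 to 0.14 for Lhx5, -0.047 to -0.016 for Mtss1, -0.085 to -0.016 for Nefh and 0.067 to 0.15 for Bcl11a. The causes of these reversals were not tested.

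No paired analysis was possible because the genotypes share no replicate numbers. A pseudocount does not apply to log2 values. A median SE of 0.12 (log2) limits what single genes can show.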
